A study of Mus musculus with 4 samples.

Results

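Platelets, the small anucleate cells of blood clotting, carry growth factors that they release when they are activated. The genes described here are 9 such factors, Pdgfa, Pdgfb, Tgfb1, Vegfa, Vegfc, Angpt1, Egf, Igf1 and Hgf, found by gene name among the 17995 genes listed in either of 2 deposited tables of mouse platelet RNA. The table of the library labelled cKO and WT listed 8 of the 9 (Egf was not listed), and the table of Old and Young listed 8 (Igf1 was not listed).

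Total RNA of platelets was sequenced in 4 libraries, 1 per group, each from the pooled platelets of 7 male mice. The group labelled cKO held mice with a conditional knockout of HuR that the design text calls platelet-specific, at 3 months of age, and the group WT held their wild-type littermates of the same age. Old and Young were wild-type mice at 24 and 3 months. The sources used here give neither the Cre line behind the knockout nor the strain of the mice. The study asks what platelet HuR does in systemic ageing. HuR, encoded by Elavl1, binds AU-rich stretches in the 3′ untranslated regions (UTRs) of messenger RNAs and is known for stabilising many of them.

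Growth factors reach platelets mainly from the megakaryocyte, the bone marrow cell that sheds platelets, which loads proteins into alpha granules and passes on some of its messenger RNA. Others, such as IGF-1, are taken up from plasma or bound there, so a factor in the granule need not have a messenger RNA in the platelet. PDGF drives the growth of connective tissue and smooth muscle cells, TGF-beta1 acts on matrix and immune cells, angiopoietin-1 steadies blood vessels through the receptor Tie2, and the VEGFs make vessels and lymphatics grow.

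The libraries held 17702341 reads (labelled cKO), 17978384 (WT), 18472149 (Old) and 18145612 (Young). Reads of Elavl1, the targeted gene, were no fewer in the library labelled cKO: it had 1481 reads there, 876 in WT, 527 in Old and 621 in Young, a ratio of reads over scaled library sizes of 1.66 for the library labelled cKO over WT, with a 95% interval of 1.53 to 1.81. Reads of the whole gene do not show whether HuR protein was lost. Directions below are therefore given for the library labelled cKO, and their relation to HuR was not tested. All 13 platelet markers had reads in each library, and their summed level ran from 54045 to 66227 RPM (reads scaled to the library total). Gp1bb, a platelet receptor chain and 1 of those markers, had 1, 9, 12 and 14 reads in the library labelled cKO, WT, Old and Young. Markers of other cells differed between libraries, and their values are given with the comparisons. With 1 library per group no difference has a replicate check, and every interval covers counting error only. In these pooled preparations, fewer cells of a type and less RNA per cell cannot be told apart.

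Because HuR binds AU-rich stretches, the 3′ UTR of each factor was searched on the sense strand for the pentamer ATTTA and the longer cores TATTTAT and TTATTTATT, which each contain the one before. The pentamer occurs 7 times in the 3′ UTR of Angpt1 (2247 bases), 9 times in Vegfa, 18 in Igf1, 7 in Hgf, 5 in Egf, 4 in Vegfc, 3 in Pdgfb and 1 time in Tgfb1 (135 bases), and does not occur in the 1203 bases of Pdgfa. TATTTAT occurs 4 times in Hgf, 3 times in Vegfa, 2 times in Angpt1 and 1 time in Pdgfb. TTATTTATT occurs 1 time, in Vegfa. Of 13323 mouse 3′ UTRs of at least 100 bases, 71.5% hold ATTTA, 30.5% hold TATTTAT and 8.19% hold TTATTTATT. These matches describe letters and not bound sites, and they were searched for with the values of the genes known. The windows below, read 5′ to 3′ from GENCODE vM21 transcripts (mm10) with TATTTAT in capitals, show both stretches of Angpt1, the abundant factor with the lower level in the library labelled cKO than in WT, beside 1 each of Pdgfb, Vegfa (the window that holds TTATTTATT) and Hgf (2 overlapping copies).
Angpt1, chr15:42425214-42425243, minus strand: catctttcttaTATTTATatgtgttcataa
Angpt1, chr15:42424874-42424903, minus strand: ttgttttcagtTATTTATaataaagcagta
Pdgfb, chr15:79995907-79995936, minus strand: aatgtaaagttTATTTATattccgtattta
Vegfa, chr17:46017165-46017194, minus strand: ttgttatcattTATTTATtggtgctactgt
Hgf, chr5:16619778-16619807, plus strand: gctttgttgttTATTTATATTTATtatcct

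Of the 9 factors, Tgfb1, Angpt1 and Pdgfa held at least 99.7% of the reads of all 9 in every library. The other 6 factors together had 44 reads in the library labelled cKO, 57 in WT, 76 in Old and 63 in Young. For most of the 9, then, the platelets held little or no messenger RNA at this depth. The 9 factors together took 0.0969% of all reads in the library labelled cKO (95% Wilson interval 0.0955 to 0.0984), 0.121% in WT, 0.144% in Old and 0.124% in Young.

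Tgfb1 encodes TGF-beta1, which platelets store in a latent form and release in quantity (ENSMUSG00000002603, mm10 chromosome 7, 25687002 to 25705077, plus strand). It had 10831 reads in the library labelled cKO, 10454 in WT, 15669 in Old and 13855 in Young, or 612, 581, 848 and 764 RPM. Old was the highest, and the 2 libraries of the knockout table lay below the 2 of the ageing table. Per kilobase of gene length it was the leading factor in all 4 libraries, at 121, 115, 168 and 151 RPM per kilobase. It ranked 344 and 348 in the library labelled cKO and WT among 13174 protein-coding genes, and 268 and 281 in Old and Young among 13006.

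Angpt1 encodes angiopoietin-1, the activating ligand of the endothelial receptor Tie2 (ENSMUSG00000022309, chromosome 15, 42424723 to 42676977, minus strand). It had 3693 reads in the library labelled cKO, 10034 in WT, 9025 in Old and 7239 in Young, or 209, 558, 489 and 399 RPM. The library labelled cKO was the lowest of the 4, and its interval touched none of the others. Among protein-coding genes per kilobase it ranked 739 in that library, against 373 in WT, 412 in Old and 483 in Young.

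Pdgfa encodes the A chain of platelet-derived growth factor, which pairs with itself or with the B chain (ENSMUSG00000025856, chromosome 5, 138976014 to 138997370, minus strand). It had 2588 reads in the library labelled cKO, 1272 in WT, 1766 in Old and 1284 in Young, or 146, 70.8, 95.6 and 70.8 RPM. The library labelled cKO was the highest and Old was next, while WT and Young had nearly the same RPM.

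Pdgfb encodes the B chain, which human platelets are known to hold in large amounts (ENSMUSG00000000489, chromosome 15, 79995874 to 80014977, minus strand). It had 27 reads in the library labelled cKO, 43 in WT, 56 in Old and 40 in Young, or 1.53, 2.39, 3.03 and 2.20 RPM. Per kilobase, its level in the library labelled cKO was 0.367 RPM, where Pdgfa had 46.9, and Pdgfa was 39.5 times Pdgfb in WT, 42.1 times in Old and 42.8 times in Young. In these mouse libraries the PDGF messenger RNA was thus nearly all that of the A chain.

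The remaining factors were near the limit of detection, where 3 reads correspond to 0.162 to 0.169 RPM. Vegfa, the main driver of vessel growth (chromosome 17, 46016993 to 46032369, minus strand), had 5 reads in the library labelled cKO, 0 in WT, 7 in Old and 0 in Young. Vegfc, a growth factor of lymphatic vessels (chromosome 8, 54077606 to 54187096, plus strand), had 3, 0, 0 and 9 reads in the same libraries. Hgf, hepatocyte growth factor (chromosome 5, 16553495 to 16620152, plus strand), had 0, 7, 10 and 0 reads. Igf1, the mediator of growth hormone action that circulates in plasma (chromosome 10, 87858265 to 87937042, plus strand), had 9 reads in the library labelled cKO and 7 in WT. Egf, epidermal growth factor (chromosome 3, 129677565 to 129755316, minus strand), had 3 reads in Old and 14 in Young. A count of 0 here allows up to 3 reads and does not show that the messenger RNA was absent.

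**Figure D1:**
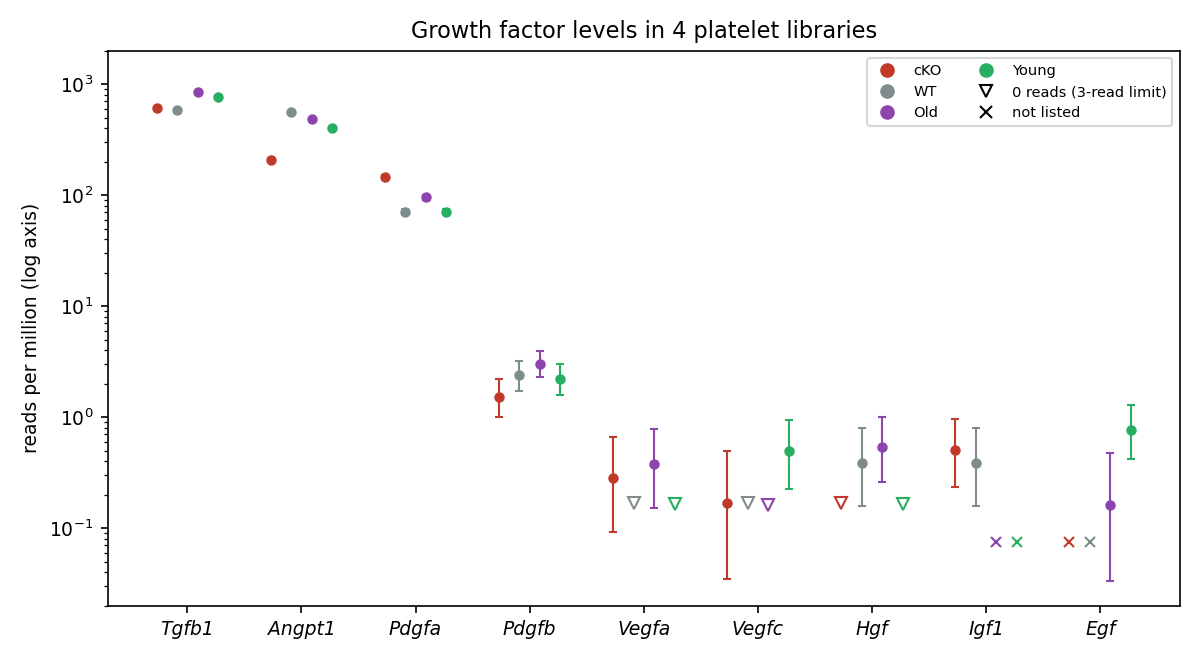
Level of each factor in RPM on a log axis in the libraries cKO, WT, Old and Young, with exact 95% Poisson bars; open triangles mark 0 reads at the limit of 3 reads and crosses mark factors not listed. Tgfb1, Angpt1 and Pdgfa lie between 70.8 and 848 RPM, Pdgfb lies between 1.53 and 3.03 RPM, and the rest lie below 1 RPM.

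The order of the levels per kilobase was Tgfb1, Angpt1, Pdgfa and Pdgfb in WT, Old and Young. In the library labelled cKO Pdgfa came before Angpt1, at 46.9 against 40.1 RPM per kilobase. Neighbours among these 4 factors had intervals that did not overlap in any library. These intervals cover counting error only. Pdgfa shares 813 of its 3119 exon bases with an antisense gene, described below, and reads of the shared bases may belong to either gene. Below Pdgfb the intervals of neighbours overlapped throughout, so those factors were not told apart, and in Young Pdgfb itself overlapped Vegfc (0.530 and 0.203 RPM per kilobase).

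A ratio of 2 factors within 1 library does not depend on how libraries are scaled against each other. The per-kilobase level of Angpt1 over that of Pdgfa was 0.855 in the library labelled cKO (95% interval 0.813 to 0.899), against 4.73 in WT (4.46 to 5.01). It was 3.06 in Old (2.91 to 3.22) and 3.38 in Young (3.18 to 3.59). The library labelled cKO was the only one of the 4 with more Pdgfa than Angpt1 per kilobase. The Pdgfa level may include reads of the antisense gene that shares its bases, and this order was not tested without them. Tgfb1 over Angpt1 was 3.03 in the library labelled cKO and 1.08 in WT, and 1.79 in Old and 1.98 in Young, so that WT stood nearest to parity. Of the summed per-kilobase levels of all factors, Angpt1 made up 19.2% in the library labelled cKO, 43.6% in WT, 32.0% in Old and 30.5% in Young. Pdgfa made up 22.4%, 9.22%, 10.4% and 9.02%.

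**Figure D2:**
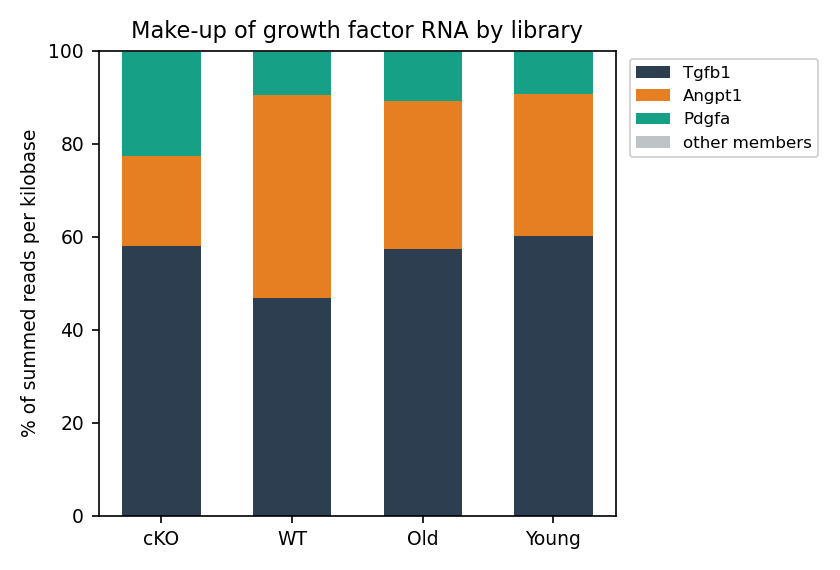
Share of the summed RPM per kilobase of all listed factors that each factor made up (%, stacked bars) in the libraries cKO, WT, Old and Young. Tgfb1 makes up 46.9% to 60.2% of each bar, and Angpt1 is narrowest and Pdgfa widest in the library labelled cKO; the other factors are too thin to see.

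In the library labelled cKO set against WT, Angpt1 fell, Tgfb1 was level within counting error, and Pdgfa had about 2 times the reads. The words rose and fell are kept for genes with 100 or more reads in 1 of the libraries compared and a 95% interval lying wholly beyond 2-fold. Of the 3 factors with that many reads, 1 fell and 0 rose, where 4.22% of 6273 genes with as many reads passed this rule in either direction and 1.71% fell. Angpt1 had a ratio of 0.362 (0.348 to 0.376), which is 2.77-fold lower. In the authors' deposited table its log2 fold change was -1.47 with an adjusted p of 0.0215, the 1 factor of 8 under 0.05 in a table where 3.79% of genes were, and that p compares 2 libraries and not the conditions. Tgfb1 had a ratio of 1.02 (0.991 to 1.05). With library totals in place of scaled library sizes its ratio was 1.05 (1.02 to 1.08), so being level within counting error depends on the scaling.

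Pdgfa had a ratio of 2.00 (1.87 to 2.14), whose lower bound did not reach the rule, and its adjusted p in the authors' deposited table was 0.176. Pdgfa shares 813 of its 3119 exon bases with 6330403L08Rik, an antisense gene on the opposite strand. That gene had 2848 reads in the library labelled cKO, 792 in WT, 1757 in Old and 1018 in Young, and it rose 3.53-fold in the library labelled cKO over WT (3.26 to 3.83). The sources used here do not give whether the counting used strand, so reads of the shared bases cannot be told apart between both genes. The summed reads of the pair, a value chosen after seeing the data, had a ratio of 2.59 (2.46 to 2.72).

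Pdgfb had a ratio of 0.617 (0.367 to 1.02) and Igf1 one of 1.26 (0.419 to 3.99) between the library labelled cKO and WT. Vegfa had 5 reads against 0, and the lower bound of its ratio, 0.900, lay below 1. Hgf had 0 against 7, at least 2.38-fold lower against a floor of 3 reads if the 7 reads are taken as exact. With their counting error the bound against the floor was 0.955-fold, which does not reach 1. The interval of the ratio itself, which uses no floor, had a bound of 1.47-fold lower. Vegfc had 3 reads against 0, for which no fold is given. The median log2 ratio of the 4 factors with at least 20 reads over the pair was -0.33, beside -0.01 over 11537 genes. These 4 went both ways, and the median over all 8 listed factors was 0.17.

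Young was a further wild-type library of 3 months, and the library labelled cKO was also set against it. Both comparisons share the library labelled cKO, so they are not independent. Angpt1 had a ratio of 0.560 over Young (0.538 to 0.582), which is 1.79-fold lower and did not pass the rule. Pdgfa rose 2.21-fold over Young (2.07 to 2.37), where 2.86% of 6428 genes passed in either direction and 2.07% rose. Tgfb1 had a ratio of 0.857 over Young, the other direction from that over WT. WT and Young themselves differed in Angpt1, with a ratio of 1.51 (1.47 to 1.56), and in Tgfb1, with 0.825 (0.804 to 0.846), but little in Pdgfa, with 1.08 (1.00 to 1.17). Of the 3 factors 0 passed the rule between WT and Young, and 1% of 6373 genes did. WT had the highest Angpt1 level of the 4 libraries.

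Markers of other cells were counted beside these values. The summed level of 14 erythroid markers was 16084 RPM in the library labelled cKO and 8259 RPM in WT, and 21525 RPM in Young; 13 had reads in the library labelled cKO and in WT and 12 in Young, where Klf1 was at 0. Of the 11 with at least 100 reads, 9 rose in the library labelled cKO over WT, among them Slc4a1 (7.14-fold), Ank1 (7.62-fold) and Trim10 (5.41-fold), and Hba-a2 fell. Their part in the Pdgfa and Angpt1 ratios was not tested. The 10 endothelial markers summed to 1698 RPM in the library labelled cKO and 1734 in WT, and the 10 fibroblast and stromal markers to 22.2 and 22.03 RPM. Pdgfrb and Postn of the stromal list were at 0 in the library labelled cKO. The 13 platelet markers summed to 54045 RPM in the library labelled cKO and 60325 RPM in WT. Of the 12 with at least 100 reads 0 passed the rule and 1 had a ratio above 1, Itga2b at 1.40, while Tubb1 had 0.507, P2ry12 0.595 and Gp6 0.682. Itgb3, Gp1ba, Gp9 and Gp5 lay near 1, at 0.968, 0.962, 0.977 and 0.966. Most platelet markers thus had ratios on the same side of 1 as Angpt1. The median log2 ratio of the 12 with at least 20 reads over the pair was -0.25, beside -1.47 for Angpt1. The part of these markers in the Angpt1 ratio was not tested.

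**Figure D3:**
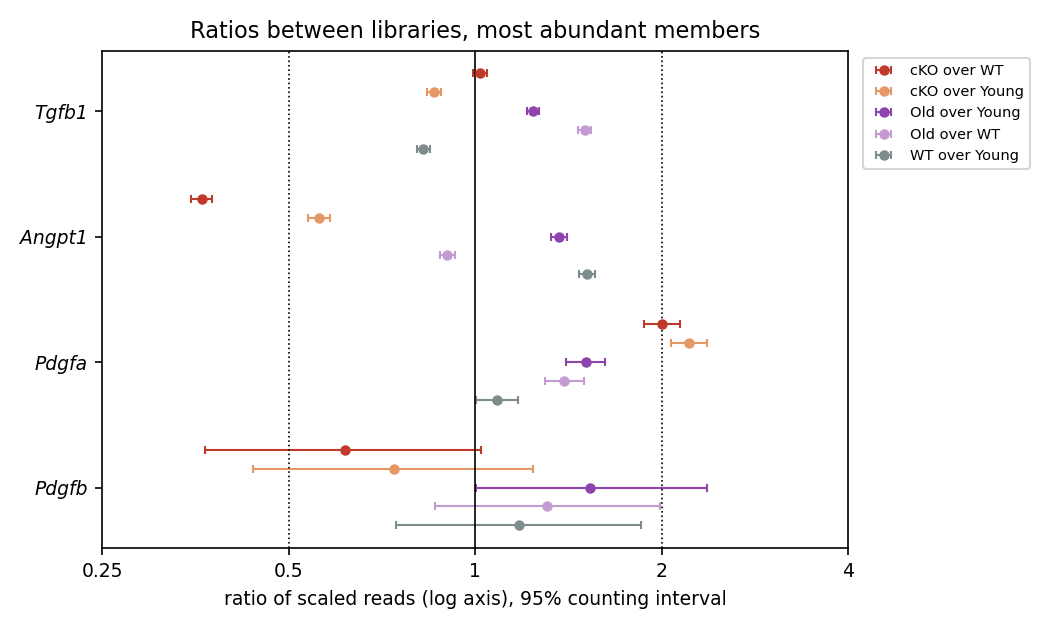
Ratio of scaled reads on a log axis, with 95% counting intervals, for Tgfb1, Angpt1, Pdgfa and Pdgfb in 5 comparisons of libraries; the dotted lines mark a 2-fold difference. Angpt1 in the library labelled cKO over WT (0.362) and Pdgfa in that library over Young (2.21) lie wholly beyond the dotted lines, and the intervals of Pdgfb are wide.

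In Old set against Young, Tgfb1, Angpt1 and Pdgfa all had ratios above 1 whose intervals did not reach 1, and 0 of the 3 passed the 2-fold rule, which 8.56% of 6519 genes did. Pdgfa had a ratio of 1.51 (1.40 to 1.62), Angpt1 one of 1.37 (1.32 to 1.41) and Tgfb1 one of 1.24 (1.21 to 1.27). Pdgfb had a ratio of 1.53, with an interval of 1.00 to 2.36. The median log2 ratio of these 4 was 0.52, beside -0.06 over 11694 genes and 0.64 over the 13 platelet markers. Their adjusted p-values in the authors' deposited table were 0.359, 0.504, 0.688 and 0.480 for Pdgfa, Angpt1, Tgfb1 and Pdgfb.

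Set against WT instead, Old had ratios of 1.502 for Tgfb1 (1.47 to 1.54) and 1.39 for Pdgfa (1.29 to 1.496), and 0 of the 3 factors passed the rule, where 8.75% of 6328 genes did. Angpt1 turned to the other side, with a ratio of 0.901 (0.876 to 0.927). Tgfb1 and Pdgfa were thus higher in Old than in either wild-type library of 3 months, and Angpt1 lay between them. Both comparisons share the Old library. The platelet markers summed to 66227 RPM in Old and 55320 RPM in Young, and 10 of the 13 had a ratio above 1. Of the 12 with at least 100 reads in Old or Young, 1 rose in Old over Young, Tubb1 at 2.28-fold. The erythroid markers summed to 11235 RPM in Old and 21525 RPM in Young, and the 10 B cell markers, all with reads, to 81.2 RPM in Old and 296 RPM in Young. The 10 T and NK cell markers summed to 52.9 RPM in Old and 95.7 RPM in Young. The 10 fibroblast and stromal markers summed to 45.1 RPM in Old, with 7 having reads and Pdgfrb at 0, and 14.8 RPM in Young, with 8 having reads. Fn1 among them rose 7.29-fold and held 499 of the 834 reads of the list in Old and 75 of 269 in Young. Of the 5 with at least 20 reads over the pair, 3 had a ratio above 1, while Col3a1 had 0.304 and Pdgfra 0.860. The 10 endothelial markers, all with reads, summed to 2071 RPM in Old and 1774 RPM in Young. The part of these cells in the ratios of the factors, or of the pathway genes below, was not tested.

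The factors with few reads differed as follows between Old and Young. For Hgf, Old held 10 reads against 0 in Young. Against a floor of 3 reads the level in Old was at least 3.65-fold higher if the 10 reads are taken as exact. With their counting error the bound against the floor was 1.75-fold. The interval of the ratio itself, which uses no floor, had a bound of 2.45-fold. In the authors' deposited table Hgf had an adjusted p of 0.0374, the 1 factor of 8 under 0.05, where 12.4% of genes in that table were. Vegfa, with 7 reads against 0, was 2.55-fold higher in Old against the floor with its reads taken as exact. With counting error that bound was 1.03-fold, and the ratio interval had a bound of 1.58-fold. Vegfc, with 0 against 9, was 2.74-fold lower against the floor with its reads taken as exact. With counting error that bound was 1.25-fold, and the ratio interval had a bound of 1.80-fold. Egf, with 3 reads against 14, had a ratio of 0.235 (0.0432 to 0.841). In the authors' deposited table the adjusted p-values were 0.109 for Vegfa, 0.0528 for Vegfc and 0.167 for Egf.

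Markers of neutrophils stood beside the Hgf reads. The 15 neutrophil markers summed to 41.3 RPM in the library labelled cKO, 68.5 in WT, 844 in Old and 31.5 in Young, with 8, 9, 14 and 9 of them having reads. All 11 with at least 100 reads rose in Old over Young. Ltf, Camp, Ly6g, Mpo and Il1r2 were at 0 in Young, and Lcn2 was at 0 in the library labelled cKO. Hgf had 10 reads in Old and 7 in WT, a ratio of 1.43 (0.492 to 4.43), and 0 in the library labelled cKO and in Young. The part of these cells in the Hgf reads was not tested.

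**Figure D4:**
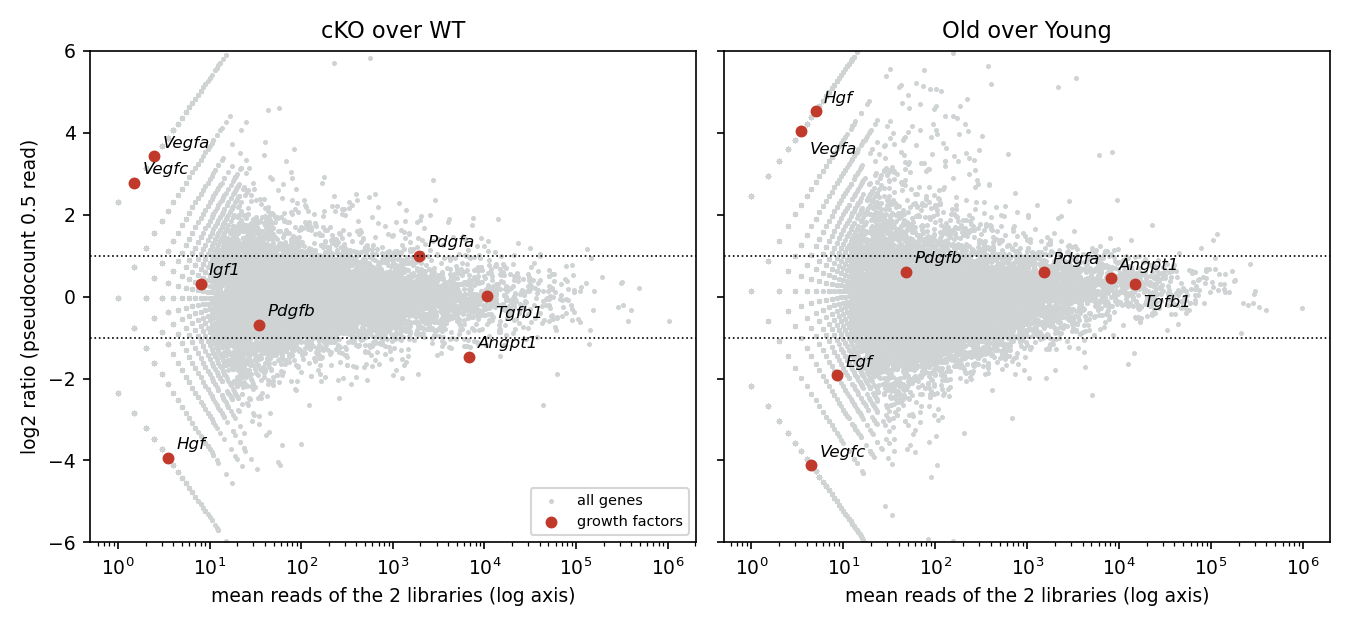
Log2 ratio (pseudocount 0.5 read) against mean reads of the 2 libraries on a log axis for all listed genes (grey) and the growth factors (red), in the library labelled cKO over WT and in Old over Young; dotted lines mark 2-fold, and genes beyond 6 on the log2 axis are not drawn. Angpt1 lies below the lower dotted line, at -1.47, in the library labelled cKO over WT, and the factors furthest from 0 in Old over Young are those with at most 14 reads.

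The genes around each factor were taken from lists of its pathway. Among PDGF and VEGF ligands, 6 of 9 were listed in the library labelled cKO and WT and 7 of 9 in Old and Young, and of the 1 in each with at least 100 reads, Pdgfa, 0 passed. Of all genes with as many reads, 4.22% passed in the library labelled cKO over WT and 8.56% in Old over Young. Vegfb, a ligand of the receptor VEGFR1, had 32 reads in the library labelled cKO, 23 in WT, 31 in Old and 23 in Young.

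Of the PDGF and VEGF receptors, 2 had at least 100 reads in each comparison, and Flt1 rose in Old. Of all genes with as many reads, 4.26% rose in Old over Young. Flt1, which encodes VEGFR1, a receptor that binds VEGF-A with high affinity, had 228 reads in the library labelled cKO and 126 in WT, and 552 in Old and 122 in Young. It rose 4.95-fold in Old over Young (4.07 to 6.08) and 4.39-fold in Old over WT, and its ratio was 1.78 (1.42 to 2.23) in the library labelled cKO over WT. Kdr, which encodes the main signalling receptor VEGFR2, had ratios of 0.953 in the library labelled cKO over WT and 1.32 in Old over Young, and did not pass. Nrp1, a co-receptor of VEGF, had 90 reads in Old and 30 in Young, under the minimum. Pdgfrb, the receptor of the PDGF B chain, had 0 reads in the library labelled cKO and in Old, against 4 in WT and 5 in Young.

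The next list held TGF-beta ligands, Tgfb1 among them, and genes whose proteins keep TGF-beta latent or release it. Ltbp2 was listed with them as a member of the LTBP family. In the library labelled cKO over WT, Furin rose and Thbs1 fell among 9 genes with at least 100 reads, where 4.22% of all such genes passed in either direction, and both also passed over Young. Furin, the protease that cleaves the TGF-beta precursor, had 1501 reads in the library labelled cKO, 521 in WT, 637 in Old and 662 in Young, and rose 2.83-fold over WT (2.56 to 3.13). Thbs1, thrombospondin, an alpha granule protein that can activate latent TGF-beta, had 12152 reads in the library labelled cKO and 74741 in WT, a ratio of 0.160. Ltbp1, which tethers latent TGF-beta to the matrix, had a ratio of 0.955 there.

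In Old over Young, 3 of the 9 genes of this TGF-beta list with at least 100 reads rose and 0 fell, where 4.26% of all such genes rose. All 9 had a ratio above 1, as did 47.3% of all 11694 genes with at least 20 reads over the pair. Ltbp2, a matrix protein of the LTBP family that is known not to bind latent TGF-beta, had 4676 reads in Old against 1008 in Young and rose 5.08-fold (4.74 to 5.44). Lrrc32, which encodes GARP, the surface anchor of latent TGF-beta on platelets and regulatory T cells, had 538 reads in Old against 171 in Young and rose 3.45-fold (2.90 to 4.12). Nrros, a related anchor of myeloid cells, had 387 and 136 reads and rose 3.12-fold (2.56 to 3.82). The 3 were also higher in Old than in WT, with 1031, 157 and 120 reads in WT, and all 3 passed the rule there. In the library labelled cKO over WT their ratios were 0.974, 0.876 and 1.03. Since Nrros is a myeloid gene, the neutrophil sums above and the 16 monocyte and macrophage markers, of which 3 of 5 with at least 100 reads rose in Old over Young, stand beside it. These were Cd14 (188 reads against 0), Csf1r (5.38-fold) and Ccr2 (3.37-fold). The list summed to 4382 RPM in Old and 4609 RPM in Young, mostly from Lyz2 and F13a1, the first of which was lower in Old, with a ratio of 0.802. Cx3cr1 was at 0 in Old. The part of these cells was not tested.

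Of the receptors and Smads of TGF-beta, 0 of 10 genes with at least 100 reads passed in either comparison. Of all such genes, 4.22% passed in the library labelled cKO over WT and 8.56% in Old over Young. Ski, a repressor of Smad signalling, had ratios of 1.29 in the library labelled cKO over WT and 0.977 in Old over Young. Smurf2, a ubiquitin ligase that removes the receptor, had 1.00 and 1.40.

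Of the angiopoietins and Tie receptors, Angpt1 was the 1 gene of 2 with at least 100 reads that fell in the library labelled cKO over WT. Of all such genes 1.71% fell. Tie1, a co-receptor of Tie2, had 998 reads in the library labelled cKO and 1762 in WT, a ratio of 0.556 (0.514 to 0.602) that did not pass, and 1681 in Old and 1811 in Young, a ratio of 1.02. Tek, which encodes Tie2 itself, had 49 reads in the library labelled cKO, 44 in WT, 46 in Old and 24 in Young. Angpt2, an antagonist of Tie2, had 9 reads in the library labelled cKO and 0 in WT and was not listed in Old and Young.

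Among the EGF family, 7 of 15 genes were listed in the library labelled cKO and WT and 5 in Old and Young, and Nrg4 was the 1 with at least 100 reads. Nrg4, a neuregulin that acts through the receptor ErbB4, had 65 reads in the library labelled cKO and 266 in WT, a fall of 4.17-fold (3.17 to 5.55). It had 59 reads in Old and 227 in Young, a fall of 3.51-fold (2.63 to 4.76). Of all genes with at least 100 reads, 4.22% and 8.56% passed in these comparisons in either direction. WT and Young lay closer, with a ratio of 1.28 (1.07 to 1.54).

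The IGF axis showed no gene past the rule among 6 with at least 100 reads in the library labelled cKO over WT. Of all such genes 4.22% passed in either direction. In Old over Young 1 of 4 rose and 1 fell, where 8.56% of all such genes passed in either direction. Igf1r, the IGF-1 receptor, had 169 reads in the library labelled cKO, 85 in WT, 269 in Old and 81 in Young, and rose 3.64-fold in Old over Young (2.83 to 4.72) and 3.17-fold in Old over WT. Igfbp4, a binding protein that holds IGF away from its receptor, had 351 reads in the library labelled cKO and 274 in WT, and 226 in Old and 838 in Young, and fell 3.39-fold in Old over Young (2.92 to 3.94). It also fell in WT over Young, 2.80-fold, where 1% of genes with at least 100 reads passed in either direction. Young had the most Igfbp4 reads of the 4 libraries. The ratio of Igfbp4 in Old over WT was 0.827 (0.690 to 0.989), which did not pass. Insr, the insulin receptor, had ratios of 1.61 and 2.15 in the library labelled cKO over WT and in Old over Young and did not pass. Of the HGF axis no gene reached 100 reads, and Met, the HGF receptor, had 8 reads in the library labelled cKO, 1 in WT, 4 in Old and 9 in Young.

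**Figure D5:**
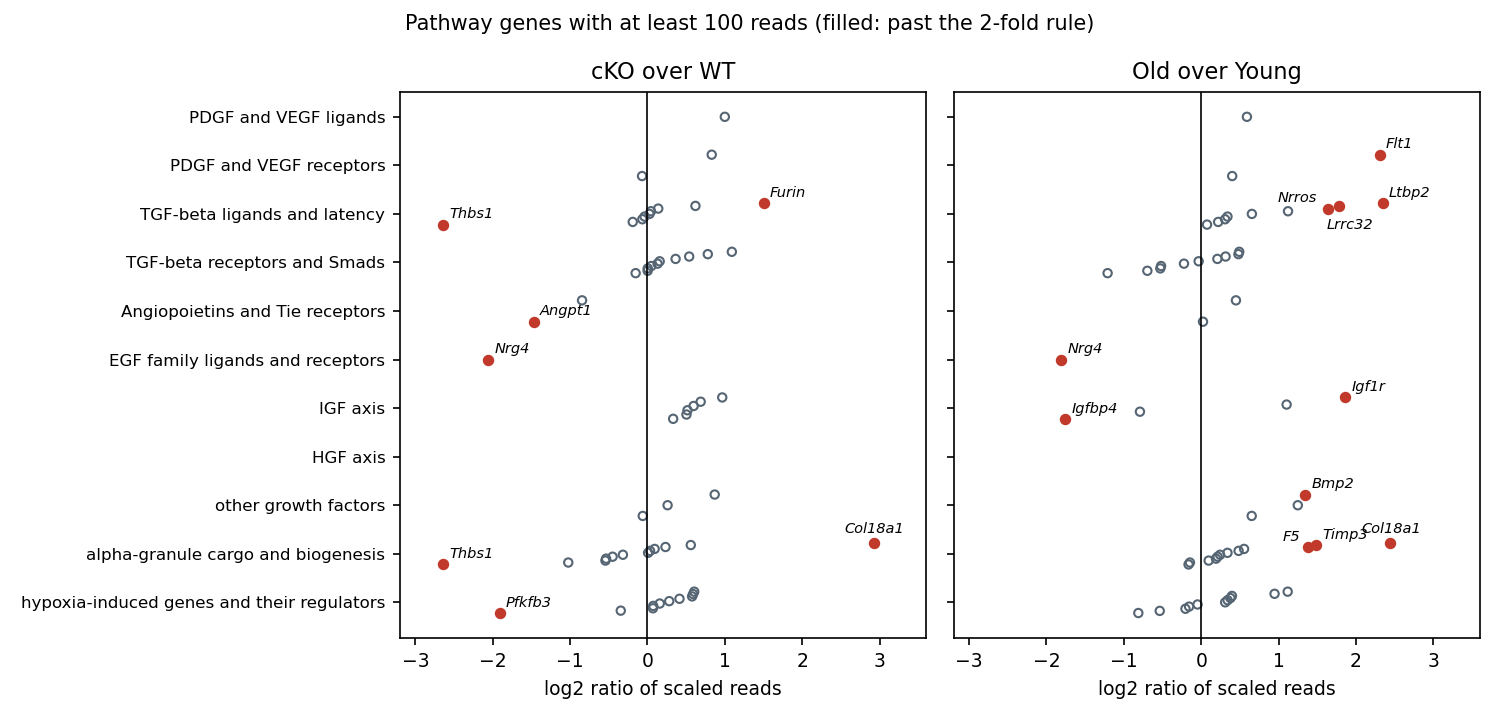
Log2 ratio of scaled reads for each gene of the pathway lists with 100 or more reads in 1 of the libraries compared, in the library labelled cKO over WT and in Old over Young; filled red points passed the 2-fold rule and carry their names, and no gene of the HGF axis reached 100 reads. Angpt1, Nrg4, Thbs1 and Pfkfb3 lie to the left in the library labelled cKO over WT, and Flt1, Ltbp2, Lrrc32, Nrros and Igf1r lie to the right in Old over Young.

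The granules that hold the factors were described by 14 listed genes of alpha granule cargo and biogenesis, 12 of them with at least 100 reads. In the library labelled cKO over WT, Col18a1 rose and Thbs1 fell, where 4.22% of genes passed in either direction. Col18a1, whose collagen is the source of endostatin, had 139 reads in the library labelled cKO and 18 in WT, and rose 7.59-fold (4.63 to 13.2). Over Young it did not pass, with a ratio of 2.67 (1.95 to 3.71), and WT over Young had a ratio of 0.345. In Old over Young, Col18a1 rose 5.44-fold (283 against 57 reads), Timp3, a metalloproteinase inhibitor that also blocks VEGF binding to VEGFR2, rose 2.79-fold (316 against 124 reads), and F5, coagulation factor V, rose 2.60-fold, where 4.26% of genes rose. In Old over WT, Col18a1 and F5 rose too, and Timp3 did not pass, with a ratio of 2.25 (1.84 to 2.76). The chemokine Pf4 had ratios of 0.690 in the library labelled cKO over WT and 1.14 in Old over Young. Vwf, von Willebrand factor, had 1.17 and 1.47. Ppbp, the gene of the list with the most reads, had 0.802 and 0.893.

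Hypoxia is a known inducer of Vegfa. Of 10 hypoxia-related genes with at least 100 reads in the library labelled cKO over WT, 0 rose and Pfkfb3, an enzyme that raises glycolysis, fell (431 against 1591 reads, a ratio of 0.266). Of all such genes, 4.22% passed in either direction. In Old over Young 0 of 11 passed, where 8.56% of all such genes did. Of the 14 with at least 20 reads over that pair, 8 had a ratio above 1. The glycolytic genes Ldha and Pgk1 had ratios of 1.12 and 1.05 in the library labelled cKO over WT, and 1.24 and 1.32 in Old over Young. Pdk1 had ratios of 1.21 and 1.93. In Old over WT it was the 1 gene of 10 that passed and rose 2.55-fold (2.38 to 2.73), where 8.75% of genes passed in either direction.

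The genes whose pattern over the 4 libraries was most like that of a factor were found by the distance between log2 levels centred on each gene's mean, among 6315 protein-coding genes. For Angpt1 they were Itfg1, at a distance of 0.113 on the log2 scale, with 325 reads in the library labelled cKO, 939 in WT, 888 in Old and 679 in Young, and Tti1, at 0.182. For Pdgfa they were Sumf1, at 0.0363, with 1082, 521, 726 and 518 reads, and Nxpe2, at 0.0552. For Tgfb1 they were Inpp5k, at 0.0392, and Knop1, at 0.0473. With 4 libraries a close pattern is a description of these libraries.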

How the data were processed

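Platelet RNA of 4 pooled libraries was analysed from 2 deposited tables. Per the submitters' processing notes, the tools were DESeq2 1.20.0, featureCounts 1.5.0-p3, HISAT2 2.0.5 and CASAVA, with build mm10. Their roles, the counting of reads shared by genes and the use of strand are not given in the sources used here. In both tables, the authors deposited a gene length and a signal for each gene, in even steps that make it a scaled read count. Dividing by the step of each library gave whole reads within 0.02 read for 100% of values, and these reads were used in place of the deposited signal. The authors' deposited log2 fold changes, p-values and adjusted p-values are named by the file headers, and the sources used here do not give their test. The names of 4 other per-sample columns match no sample, so these were left out.

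With 1 library per group, replicates could not be tested. Ratios are reads over library sizes scaled by trimmed means (TMM; edgeR 4.0.16, R 4.3.3), with an exact 95% Clopper-Pearson interval (scipy 1.17.1, pandas 2.3.3, Python 3.11.15) that covers counting error only, since amplified reads are not independent molecules. RPM uses library totals, and its interval is exact Poisson. A gene passed the rule with 100 or more reads in 1 of the libraries compared and an interval wholly beyond 2-fold. For a fold against the floor, a library at 0 reads was set at 3 reads, while the ratio interval used the 0 itself. Comparisons across the tables, which the authors scaled separately, used the 14652 genes in both. The fewest reads of a listed gene over a pair of libraries was 2. The ratio, interval and rule were checked on simulated reads drawn with Poisson counting error only. That check does not cover spread between libraries or amplification. Medians used genes with at least 20 reads over the pair and a pseudocount of 0.5 read.

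All 9 factors and Elavl1 are named, with, per pathway list, genes past the rule and those with the most reads; other list members named and Gp1bb were chosen after their values were seen. The members and lists were chosen with earlier results of these data known. The coordinates and lengths of all 9 factors equal those of GENCODE vM21 genes. Each 3′ UTR is the longest among the coding transcripts of its gene. Alternatives were other scalings, read minimums, bounds, pseudocounts and the other wild-type library as reference.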

Additional observations from a re-analysis of the deposited data

How the results depend on the processing

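Of 64 alternative values, 53 kept their direction and their side of the rule, or moved by less than the counting error. With WT replaced by Young, the library labelled cKO had ratios of 0.857 for Tgfb1, which turned round, 0.560 for Angpt1, which no longer passed, and 2.21 for Pdgfa, which then passed. The count of factors past the rule was again 1, but a different factor in the other direction, Pdgfa in place of Angpt1. That count was 2 at a bound of 1.5-fold (Pdgfa and Angpt1) and 0 at 4-fold. The Pdgfa ratio was 2.59 with the antisense reads added, a choice made after seeing the data. The median log2 ratio over all 8 listed factors was 0.17, in place of -0.33 over 4. In Old over Young, 1 factor, Hgf with 10 reads, passed with no read minimum, and the median was 0.36 with library totals in place of 0.52. With Young replaced by WT, Angpt1 had a ratio of 0.901 and turned round. The causes were not tested. Egf and Igf1 have no value under the other wild-type library, since each is listed in 1 table. No paired analysis was possible because each group has 1 library, and for the same reason no replicate could be left out. Depth limits Vegfa, Vegfc, Hgf, Igf1 and Egf, which had at most 14 reads.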

Other observations

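Growth factors outside the 9 were counted from a list of 19 further genes. Bmp2, a bone morphogenetic protein, had 145 reads in the library labelled cKO, 119 in WT, 488 in Old and 210 in Young. It rose 2.54-fold in Old over Young (2.16 to 3.01) and 4.11-fold in Old over WT. Bmp2 was the 1 gene of 3 with at least 100 reads that passed in Old over Young, where 8.56% of all such genes did. In the library labelled cKO over WT 0 of 3 passed, where 4.22% of all such genes did. Cxcl12, a chemokine that retains blood cells in marrow, had 223 reads in the library labelled cKO and 120 in WT, a ratio of 1.83 (1.46 to 2.30). It had 230 in Old and 106 in Young, a ratio of 2.38 (1.88 to 3.02), and passed in neither. Grn, progranulin, had ratios of 0.958 in the library labelled cKO over WT and 1.57 in Old over Young.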
